A study of Sus scrofa with 55 samples.

Results

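The 10 genes described here encode enzymes, or core subunits of enzyme complexes, that place or remove methyl groups on lysines of the histone tails. They were taken by symbol from a table of 25880 pig genes: SETD2, KMT2B, EZH2, EED, SUZ12, EHMT2 and SETDB1 on the methylating side, and KDM1A, KDM1B and KDM5B on the demethylating side. All 10 had exactly 1 row in the table, and all 10 passed the filter on low counts. Their Ensembl gene IDs are ENSSSCG00000011332 (SETD2), ENSSSCG00000002895 (KMT2B), ENSSSCG00000028840 (EZH2), ENSSSCG00000014915 (EED), ENSSSCG00000017744 (SUZ12), ENSSSCG00000001420 (EHMT2), ENSSSCG00000006645 (SETDB1), ENSSSCG00000003531 (KDM1A), ENSSSCG00000001074 (KDM1B) and ENSSSCG00000010928 (KDM5B).

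Histone methylation marks parts of the genome as active or silent, and in the growing oocyte it is laid down together with DNA methylation. In mouse oocytes, SETD2 places trimethylation of lysine 36 of histone H3 (H3K36) over transcribed gene bodies, where DNA methylation is then set, and KMT2B supplies H3K4 methylation away from active promoters. KDM1A and KDM1B remove H3K4 methylation, and in mouse oocytes KDM1B is needed for DNA methylation at several imprinted genes. The Polycomb repressive complex formed by EZH2, EED and SUZ12 methylates H3K27, while EHMT2 (also called G9a) and SETDB1 methylate H3K9 in silent chromatin.

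Cytoplasmic RNA was read from 55 single pig oocytes (Sus scrofa) with Smart-seq2, a protocol that copies whole messenger RNAs of 1 cell into cDNA, here amplified over 16 PCR cycles. The oocytes came from 5 successive antral follicle stages, numbered 1 to 5, with 11, 12, 11, 11 and 10 oocytes. They were given by 4 wild-type pubertal gilts of Landrace and Yorkshire stock: 14 oocytes from gilt 201, 9 from gilt 205, 12 from gilt 801, which gave none at stage 5, and 20 from gilt 803. Every gilt was 208 to 210 days old, and the ovaries were collected 48 h after an injection of 5 IU of PMSG (pregnant mare serum gonadotropin), which drives follicle growth, so there was no untreated group. The question put to these data was whether the messenger RNAs of the enzymes differ between follicle stages.

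Levels are given as CPM, the counts of a gene per 1000000 counts of the oocyte. Total counts ran from 151104 to 38282850 per oocyte with a median of 12139540, and 3 oocytes of gilt 803 held fewer than 1000000. A count of 0 therefore allows up to 0.0784 CPM in the deepest oocyte but up to 19.9 CPM in the shallowest, taking 3 counts as the limit and covering counting error only. The mitochondrially encoded share of counts ran from 2.1% to 91.8%. ZP3 and GDF9, which encode an egg coat protein and a growth factor made by oocytes, were detected in all 55 oocytes. In 13 oocytes, 12 of gilt 803 and 1 of gilt 801, the summed CPM of the granulosa and cumulus markers exceeded that of the oocyte markers; these are called granulosa-rich below. The granulosa and cumulus sum ran from 4521 to 30361 CPM in them, with 21 of 22 markers detected, and from 27 to 11319 CPM in the other 42 oocytes, also with 21 of 22 detected. FSHR, the granulosa receptor for follicle-stimulating hormone, had no count in 19 of those 42 and in 3 of the 13. An oocyte of gilt 803 (stage 2, oocyte 3) held 7083 CPM of blood, immune and endothelial markers against 944 CPM of oocyte markers.

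The medians of the enzymes over the 55 oocytes lay between 0 and 13.3 CPM, and single oocytes of 1 stage differed over a wider range than the stage medians did. SETDB1 had a median of 13.3 CPM and was detected in 52 oocytes. KMT2B, also detected in 52, had a median of 5.2 CPM, SETD2 4.00 CPM (44 oocytes), KDM1A 2.61 CPM (47), SUZ12 2.28 CPM (40) and EZH2 2.19 CPM (46). KDM5B had a median of 1.00 CPM (38 oocytes), KDM1B 0.661 CPM (36), EHMT2 0.235 CPM (37) and EED 0 CPM (27). At least 1 count was found for all 10 enzymes in 18 oocytes and for 9 in a further 10, while 1 oocyte held only 2 of them. The highest oocytes stood far above these medians. The 5 oocytes with the most counts of an enzyme held between 54.2% (EZH2) and 82.9% (KDM1B) of all counts of that enzyme.

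**Figure D1:**
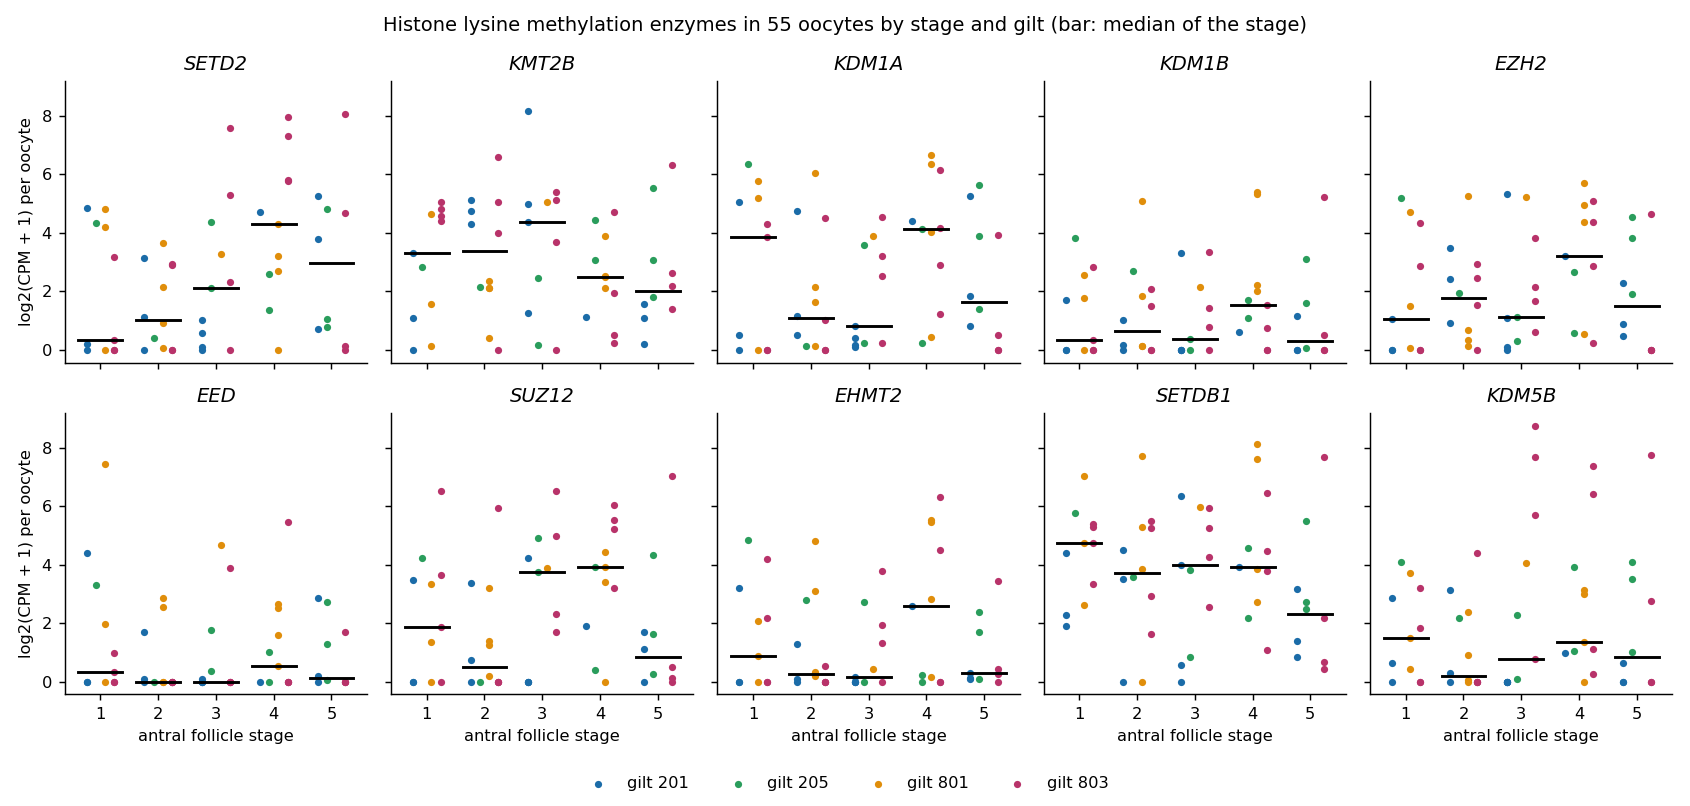
Level of each of the 10 enzymes in single oocytes, as log2(CPM + 1), by antral follicle stage. Each point is 1 oocyte, coloured by gilt, and the bar is the median of the stage. Within every stage the points spread over several log2 units, and the stages overlap for all 10 enzymes.

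SETD2 is the methyltransferase that trimethylates H3K36. The 11 oocytes of stage 1 ran from 0 to 27.5 CPM with a median of 0.254, and the 12 oocytes of stage 2 from 0 to 11.6 CPM with a median of 1.01. The range of stage 3 was 0 to 192 CPM with a median of 3.35, that of stage 4 was 0 to 247.5 CPM with a median of 18.8, and that of stage 5 was 0 to 264 CPM with a median of 6.87. The highest oocytes of stages 3 and 4 were granulosa-rich ones of gilt 803. Among the oocytes that were not granulosa-rich, the highest SETD2 levels from stage 1 to stage 5 were 27.5, 11.6, 19.7, 25.1 and 264 CPM. Every stage also held oocytes with no SETD2 count, so no stage lay apart from its neighbours. The highest oocyte, of stage 5 and gilt 803 (264 CPM), alone held 29.9% of all SETD2 counts. With mitochondrially encoded genes left out of the total, the medians of stages 1 to 5 were 1.39, 5.85, 12.8, 30.0 and 28.0 CPM.

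KMT2B, which methylates H3K4, had stage medians of 8.85, 9.48, 19.6, 4.66 and 3.01 CPM. The highest oocytes of stages 1 to 5 reached 32, 94.2, 285, 24.9 and 79.2 CPM, so 1 oocyte could carry much of a stage's counts. The oocyte with 285 CPM (stage 3, gilt 201, oocyte 4) held 35.1% of all KMT2B counts, and its oocyte markers summed to 1566 CPM, against a median of 18501 CPM over the 42 oocytes that were not granulosa-rich. The oocyte with 94.2 CPM was the one rich in blood and immune markers, and the next highest of stage 2 held 33.4 CPM.

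The 3 subunits of the Polycomb complex each had their highest stage median at stage 4 in CPM. EZH2, the catalytic subunit, had stage medians of 1.07, 2.38, 1.2, 8.21 and 1.79 CPM, and its highest oocyte held 51.5 CPM (stage 4, gilt 801). SUZ12, the scaffold of the complex, had medians of 2.64, 0.408, 12.4, 14.2 and 0.781 CPM, and its highest oocyte held 129 CPM (stage 5, gilt 803). EED, the subunit that binds the finished mark, had medians of 0.254, 0, 0, 0.462 and 0.104 CPM. It had no count in 28 of 55 oocytes, and 1 granulosa-rich oocyte (stage 1, gilt 801) held 172.8 CPM, 32.9% of all EED counts. The median mitochondrial share was 9.05% at stage 4 and between 50.98% and 76.1% at the other stages. With mitochondrially encoded genes left out of the total, SUZ12 was highest by median at stage 3 (25.8 against 16.1 CPM at stage 4), while EZH2 (21.4 CPM) and EED (1.68 CPM) were still highest at stage 4. All 5 stages overlapped for each subunit.

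SETDB1 and EHMT2 both methylate H3K9 but differed in how widely they were found. SETDB1 had stage medians of 25.5, 12.2, 14.9, 14.1 and 4.01 CPM, and it was detected in every oocyte of stages 1, 4 and 5. The lowest oocytes of stages 1 to 5 held 2.73, 0, 0, 1.13 and 0.353 CPM and the highest 129.8, 208.5, 80.9, 279.7 and 201.4 CPM, so the stages overlapped. With mitochondrially encoded genes left out of the total, the order of its stage medians was another: 61.9, 57.0, 49.6, 83.8 and 21.4 CPM. EHMT2 had stage medians of 0.840, 0.207, 0.125, 5.05 and 0.219 CPM, was detected in 37 oocytes and reached 78.9 CPM in 1 oocyte of stage 4 (gilt 803, granulosa-rich).

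Among the demethylases, KDM1A (LSD1) and KDM1B (LSD2) remove mono- and dimethylation of H3K4, and KDM5B removes the di- and trimethylated forms. KDM1A had stage medians of 13.5, 1.13, 0.764, 16.4 and 2.12 CPM, highest at stages 1 and 4, and no oocyte exceeded 100.4 CPM. KDM1B had medians of 0.254, 0.577, 0.300, 1.87 and 0.230 CPM with a highest oocyte of 40.5 CPM at stage 4. KDM5B had medians of 1.82, 0.136, 0.696, 1.58 and 0.776 CPM, but single oocytes lay far above them. The highest values were 428 CPM at stage 3, 205 CPM in another oocyte of that stage, 162.5 CPM at stage 4 and 212 CPM at stage 5, and all 4 of these oocytes came from gilt 803 and were granulosa-rich.

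Levels can be set against each other between genes only after scaling by transcript length. The authors' length-scaled table lists 6 of the 10 enzymes, and its scale per oocyte is not stated, so only the order within an oocyte was read from it. For SETDB1 this table and the counts differ: it lists SETDB1 above 0 in every oocyte, including the 3 with no SETDB1 count. In one of these (stage 2, gilt 201, oocyte 2) it lists 0.641 for SETDB1, from 0 counts, and 0.170 for EZH2, from 74 counts. Smaller mismatches were found for EZH2, listed at 0 in 7 oocytes but without a count in 9, and for KDM5B, listed at 0 in 18 but without a count in 17. The order below is that of the authors' table and holds only as far as its values do. In it, SETDB1 was the highest of the 6 in 37 of 55 oocytes. It lay above EZH2 in 54 oocytes, above SUZ12 in 50, above EED in 50, above SETD2 in 49 and above KDM5B in 49. Its median length-scaled value was 3.08, against 0.263 for SUZ12, 0.222 for SETD2, 0.0714 for KDM5B, 0.0700 for EZH2 and 0 for EED. KDM5B led in 6 oocytes, SETD2 in 4, SUZ12 in 4, EED in 3 and EZH2 in 1. The medians of the other 5 lay closer to each other than their spread over oocytes.

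**Figure D2:**
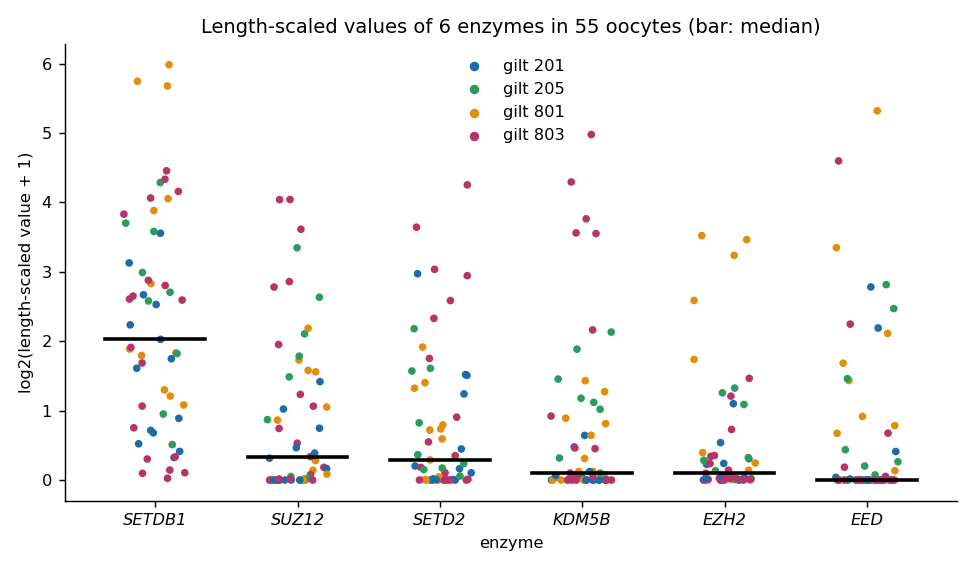
Length-scaled value of 6 enzymes in each of the 55 oocytes, as log2(value + 1), from the authors' length-scaled table; points are oocytes coloured by gilt and bars are medians. As listed there, SETDB1 has the highest median (3.08 before the log) and EED has a median of 0; SETDB1 is listed above 0 also in the 3 oocytes with no SETDB1 count.

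To compare stages with the animal as the replicate, counts were summed over the oocytes of a gilt at a stage, which gave 19 sums, and the sums were scaled with edgeR's TMM factors. In these sums, SETD2 stood at 15.7 CPM in gilt 201, 5.39 in gilt 205, 9.37 in gilt 801 and 3.79 in gilt 803 at stage 1, and at 46.0, 9.24 and 81.2 CPM in gilts 201, 205 and 803 at stage 5. SETD2 was higher at stage 5 in 3 of 3 gilts, although the lowest stage 5 sum lay below the highest stage 1 sum. These sums rest on few oocytes. At stage 5, 1 oocyte held 5737 of the 5857 SETD2 counts of gilt 803. Likewise, 1 oocyte held 351 of 383 in gilt 205 and 1 held 456 of 628 in gilt 201. In gilt 205, oocytes 1 and 2 of stage 5 held 0.715 and 1.06 CPM, against 19.3 CPM in its only stage 1 oocyte. The fitted change of SETD2 was 1.96 ± 1.16 log2 units (SE; 95% interval -0.42 to 4.34), with an adjusted p of 0.930 (edgeR's quasi-likelihood test, Benjamini-Hochberg adjustment over 15637 genes). The trend over stages was 0.55 ± 0.26 log2 units per stage for SETD2 (unadjusted p = 0.0447, adjusted p = 0.859, same test). Without gilt 803 the change of SETD2 from stage 1 to stage 5 was 0.89, and without the granulosa-rich oocytes it was 3.15, with an adjusted p of 1 in both by the same test.

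No other enzyme moved one way in all 3 gilts that gave oocytes of both end stages. KMT2B, EZH2, EED, SUZ12, SETDB1 and KDM5B were higher at stage 5 in 2 gilts and lower in 1, and KDM1A, KDM1B and EHMT2 were higher in 1 and lower in 2. The fitted changes were 1.38 ± 1.63 for KDM1B, 0.82 ± 1.2 for SUZ12, 0.77 ± 0.85 for SETDB1, 0.58 ± 1.28 for KMT2B, 0.38 ± 1.23 for EZH2, 0.13 ± 1.48 for KDM5B, 0.071 ± 1.08 for KDM1A, -0.54 ± 1.82 for EED and -1.08 ± 1.79 for EHMT2 (log2 ± SE). Each was smaller than its standard error. The 95% intervals were wide: the narrowest, that of SETDB1, ran from -0.99 to 2.52, and that of EED from -4.28 to 3.21, so changes of several fold in either direction were not detectable at this spread for most of the enzymes.

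None of the 10 enzymes passed an adjusted p of 0.05 between stages 5 and 1, where 0% of the 15637 genes tested passed by edgeR's quasi-likelihood test (840 genes, and 0 of the 10, had an unadjusted p under 0.05). DESeq2 called 368 genes and limma voom 0 in that comparison, and none of the 10 under either. None passed for the trend over stages, where 0.0128% of genes did, or for the F test over all stages and the 4 comparisons of neighbouring stages, where 0% did. Of the 10 changes from stage 1 to stage 5, 8 were above 0 and 2 below, with a median of 0.48 log2 units beside -0.27 over all genes. For the trend, 9 were above 0 and the median was 0.14 beside -0.057. The zero point depends on the scaling: the median of all genes was -1.16 for stage 5 against stage 1 with total counts in place of TMM. Taken relative to the median of all genes, 8 enzymes lay above it and 2 below under TMM, under DESeq2 size factors and under total counts.

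**Figure D3:**
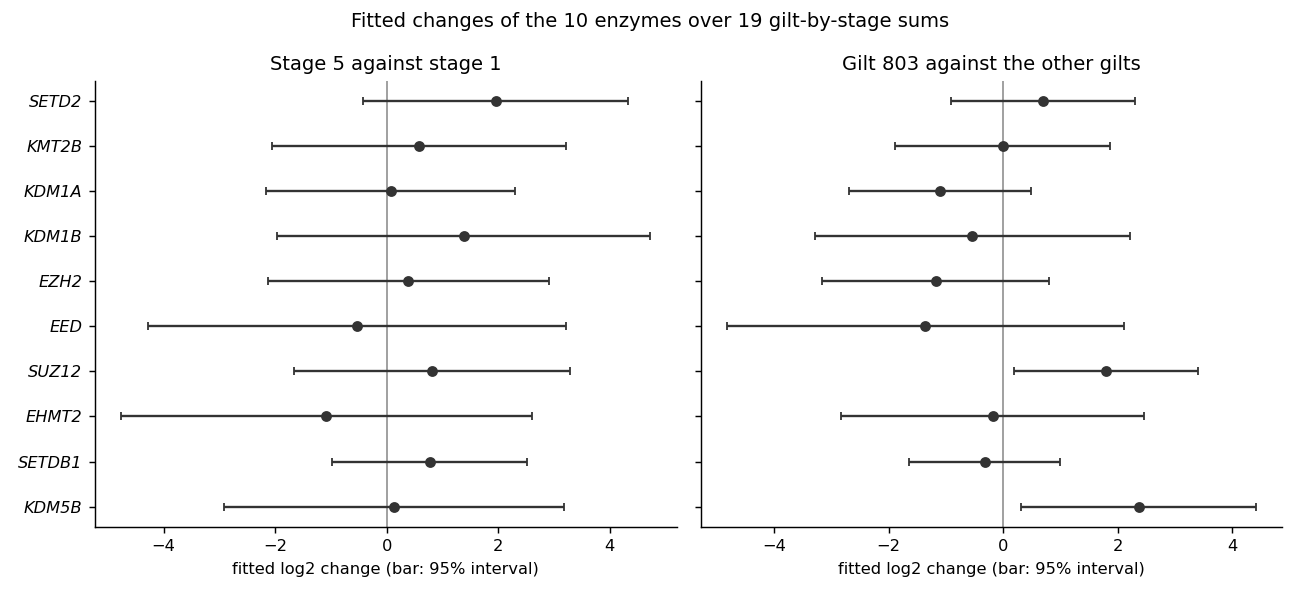
Fitted log2 change of each enzyme over the 19 gilt-by-stage sums, for stage 5 against stage 1 (left) and gilt 803 against the mean of the other gilts (right). Points are edgeR estimates and bars their 95% intervals. All 10 intervals on the left hold 0, and on the right those of SUZ12 and KDM5B do not. The intervals on the right cover spread between sums, not between animals.

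Between neighbouring stages, 2 of the 10 enzymes had an unadjusted p under 0.05, each in 1 of the 4 comparisons (edgeR's quasi-likelihood test). Of all 15637 genes, 728 had one for stage 3 against stage 2 and 1034 for stage 2 against stage 1. With 10 enzymes in 4 comparisons, 2 such values can arise by chance, so they are given as a description. SETD2 stood at 5.26, 0.725, 3.14 and 1.6 CPM at stage 2 and at 1.46, 20.3, 4.78 and 18.9 CPM at stage 3 in gilts 201, 205, 801 and 803. It was higher at stage 3 in 3 of the 4 gilts and lower in gilt 201, and the change was 2.46 ± 1.13 log2 units (unadjusted p = 0.0383, adjusted p = 0.995, edgeR's quasi-likelihood test). EED stood at 11.2, 2.47, 29.0 and 0.530 CPM at stage 1 and at 1.17, 0, 2.08 and 0 CPM at stage 2 in the same gilts. It was lower at stage 2 in 4 of 4 gilts, with a change of -3.86 ± 1.80 (unadjusted p = 0.0421, adjusted p = 0.730, same test). The ranges of the sums overlapped in both cases. The sum of 29.0 CPM contains the granulosa-rich oocyte with 172.8 CPM, and without the granulosa-rich oocytes the EED change was -3.39.

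More genes passed between animals than between stages: 2.17% of genes passed the F test among gilts, and 4.68% passed for gilt 803 against the other gilts (688 higher, 44 lower, edgeR's quasi-likelihood test). Each gilt is 1 animal whose stage sums served as its replicates, so these tests measure spread between sums and not between animals. Gilt 803 was singled out with earlier results known, because it held most of the granulosa-rich oocytes. None of the 10 enzymes passed either test. KDM5B, the H3K4 demethylase, came nearest. In gilt 803 its sums at stages 1 to 5 were 4.47, 1.35, 71.9, 25.7 and 26.7 CPM. They were 3.80, 4.09, 0, 2.27 and 0.513 CPM in gilt 201, 4.52, 8.22, 4.15, 11.8 and 10.4 CPM in gilt 205, and 3.44, 1.09, 8.67 and 1.56 CPM at stages 1 to 4 in gilt 801. Gilt 803 was therefore the highest at stages 3, 4 and 5 and within the range of the other gilts at stages 1 and 2. The fitted difference was 2.37 ± 1.00 log2 units (95% interval 0.32 to 4.41, unadjusted p = 0.0251, adjusted p = 0.200, edgeR's quasi-likelihood test).

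SUZ12, the Polycomb scaffold, showed a difference of 1.80 ± 0.78 log2 units between gilt 803 and the other gilts (95% interval 0.19 to 3.40, unadjusted p = 0.0296, adjusted p = 0.219, edgeR's quasi-likelihood test). From stage 1 to stage 5 its sums in gilt 803 were 6.97, 14.5, 31.7, 14.8 and 38.9 CPM, while the other gilts ran from 0 to 37.6 CPM. Gilt 803 was the highest at every stage except stage 3, where gilt 205 stood at 37.6 CPM. With total counts in place of TMM, and with DESeq2, both enzymes passed (adjusted p of 0.0263 and 0.0395 for KDM5B, 0.0287 and 0.0319 for SUZ12). Under total counts the median of all genes lay at 1.17 log2 units, and KDM5B then stood 2.31 and SUZ12 1.87 above it. The other 8 enzymes had fitted differences from -1.36 (EED) to 0.69 (SETD2), and 3 of all 10 were above 0, with a median of -0.25 beside 0.11 over all genes.

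Over the 20 oocytes of gilt 803, the rank correlation with the granulosa and cumulus sum was 0.31 for KDM5B and 0.43 for SUZ12. The enzyme levels were scaled here without the mitochondrially encoded genes. Within gilt 803, KDM5B had a median of 25.9 CPM in the 12 granulosa-rich oocytes (range 0 to 428) and of 1.62 CPM in the other 8 (range 0 to 20.2). The median of the 12 fell in a gap: 4 had no count, and none lay between 1.16 and 50.6 CPM. Over all 13 granulosa-rich oocytes the KDM5B median was 1.82 CPM. In the same 12 and 8 oocytes, SUZ12 had medians of 33.5 CPM (range 0 to 90.5) and 1.53 CPM (range 0 to 129). Both ranges overlapped, since some granulosa-rich oocytes had no count and 1 of the others held the highest SUZ12 value of all. SETD2 likewise had medians of 22.2 and 5.31 CPM, while KMT2B went the other way, with 8.46 CPM in the granulosa-rich oocytes and 29.7 CPM in the rest. The SETD2 median of 22.2 CPM also fell in a gap, between oocytes at 6.50 and 37.9 CPM. Left without the granulosa-rich oocytes, the difference of gilt 803 was -0.41 ± 1.28 for KDM5B and 0.0024 for SUZ12, and 5 genes of all passed by edgeR's quasi-likelihood test instead of 732. That fit also lost 12 of the 20 oocytes of gilt 803, among them all of its stage 4 oocytes, so it held less data for this animal.

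High levels of SETDB1, EHMT2, KDM1A, KDM1B and EZH2 met in 3 oocytes of gilt 801 with little mitochondrial RNA, which were picked after their values were seen. These oocytes (stage 2 oocyte 4, stage 4 oocytes 2 and 3) had 4.68%, 4.74% and 3.62% mitochondrially encoded counts and were not granulosa-rich. In them SETDB1 reached 208.5, 279.7 and 194.1 CPM, KDM1A 65.4, 80.8 and 100.4 CPM, and KDM1B 33.0, 40.5 and 39.3 CPM. EHMT2 reached 27.3, 44.7 and 43.0 CPM and EZH2 37.0, 51.5 and 30.0 CPM. The 2 highest values of SETDB1, KDM1A and KDM1B among the 55 oocytes were in this group. SETD2 (11.6, 5.40 and 18.8 CPM), SUZ12 (8.30, 9.51 and 14.2 CPM) and KDM5B (4.26, 1.58 and 7.81 CPM) were not among their 5 highest values in any of the 3. These oocytes were also deep, with 20923950 to 38282850 counts, and came from 1 gilt, so their animal, depth and mitochondrial share cannot be told apart.

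A smaller mitochondrial share alone raises the CPM of every other gene, so the levels were also scaled to the counts outside the mitochondrially encoded genes. The oocytes that were not granulosa-rich were split at shares of 10% and 60%, limits chosen after the values were seen. The 5 oocytes under 10% are the 3 just described and 2 oocytes of gilt 803 (stage 2, oocytes 1 and 4), so a median over them would restate that choice. These 2 were far lower, with 45.9 and 7.18 CPM of SETDB1, 1.87 and 0 CPM of KDM1B, and 0 CPM of KDM1A and EHMT2 in both. Their totals were 1109755 and 151104 counts, against the median of 12139540. In the shallower of them, SETDB1 rests on 1 count and a count of 0 allows up to 19.9 CPM of all counts, so its levels are imprecise. A low mitochondrial share and high levels of these enzymes therefore did not go together in every oocyte. Between the 7 oocytes from 10% to 60% and the 30 at 60% or more, the medians of all 10 enzymes were higher in the 7. They were 69.1 and 46.0 CPM for SETDB1, 36.02 and 6.08 CPM for EZH2, 25.9 and 6.82 CPM for KDM1A, 59.99 and 25.2 CPM for KMT2B and 23.6 and 7.83 CPM for SETD2. SUZ12 had 21.6 and 6.23 CPM, KDM5B 19.8 and 2.24 CPM, KDM1B 6.33 and 1.33 CPM, EHMT2 5.15 and 0.778 CPM and EED 3.38 and 0.174 CPM. The 7 include oocytes with 5287 to 11319 CPM of granulosa and cumulus markers (stage 1 of gilts 201, 205 and 803, stage 3 of gilt 801). They also include the oocyte rich in blood and immune markers. Among the 30, the highest granulosa and cumulus sum was 2246 CPM. Mitochondrial share and these markers therefore cannot be told apart between the 2 classes. Over the 42 oocytes, these 3 of gilt 801 included, the rank correlation of the scaled level with the mitochondrial share was -0.42 for KDM1B, -0.37 for EZH2, -0.36 for KDM1A and -0.13 for KMT2B, as a description, since oocytes of a gilt share their animal.

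**Figure D4:**
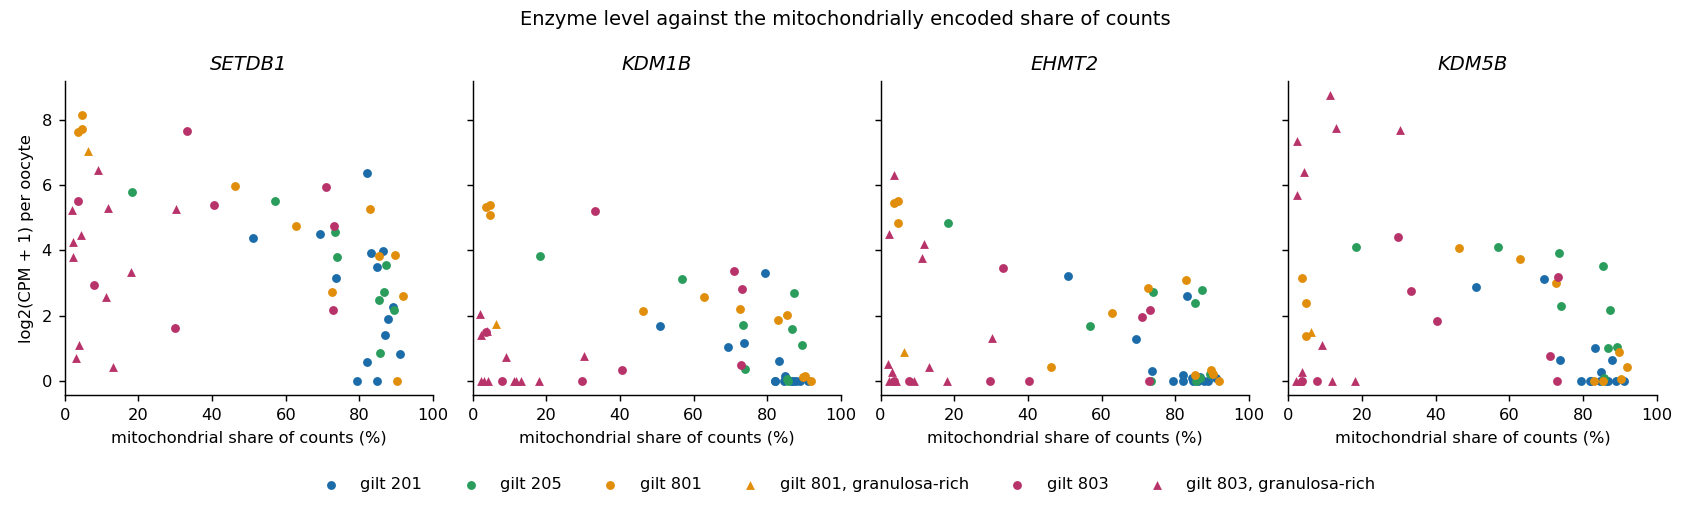
Level of SETDB1, KDM1B, EHMT2 and KDM5B in single oocytes, as log2(CPM + 1), against the mitochondrially encoded share of counts in percent. Circles are oocytes that were not granulosa-rich and triangles the granulosa-rich ones, coloured by gilt. The 3 oocytes of gilt 801 under 5% stand high for SETDB1, KDM1B and EHMT2, and the high KDM5B oocytes are granulosa-rich ones of gilt 803.

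Spearman's rho between enzymes, computed on CPM without the mitochondrially encoded genes, was above 0 for 43 of 45 pairs over the 55 oocytes, with a median of 0.33 and a range of -0.10 to 0.57. The highest pairs were KDM1A with EZH2 (0.57), KDM1A with EED (0.56) and KDM1A with KDM1B (0.55). Among the Polycomb subunits, rho was 0.38 for EZH2 with EED, 0.36 for EED with SUZ12 and 0.15 for EZH2 with SUZ12. KMT2B had values from -0.10 to 0.33 with the other 9. In the 42 oocytes that were not granulosa-rich, the pair SETD2 and SUZ12 reached 0.69 and the pair KDM1B and EHMT2 0.63. Within single gilts the median over the 45 pairs was 0.38 (gilt 201, 14 oocytes), 0.25 (gilt 205, 9 oocytes), 0.30 (gilt 801, 12 oocytes) and 0.34 (gilt 803, 20 oocytes). The enzymes of 1 oocyte share its library, depth and amplification, and these values are given as a description.

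**Figure D5:**
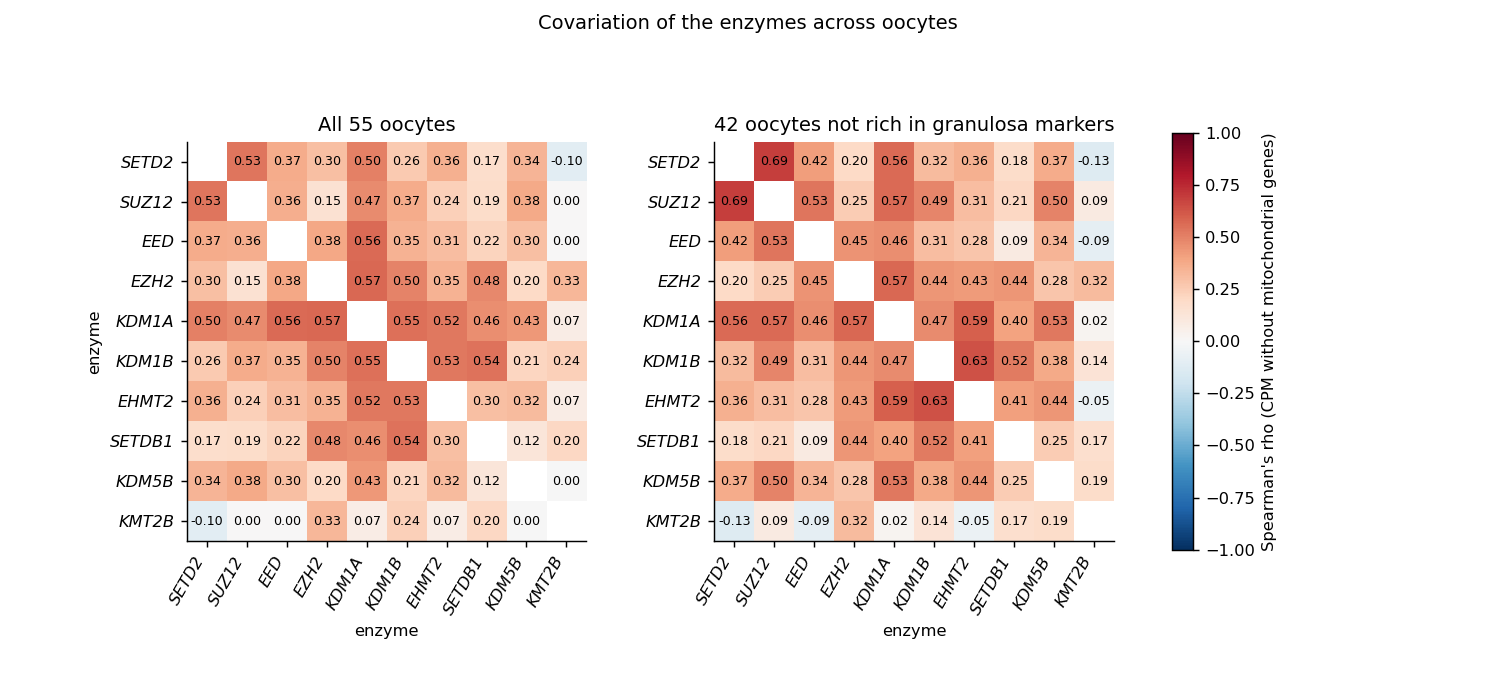
Spearman's rho between each pair of the 10 enzymes across all 55 oocytes (left) and across the 42 oocytes that were not granulosa-rich (right), with the value printed in each cell. Most cells are above 0, and those of KMT2B on the left run from -0.10 to 0.33.

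For each enzyme, the 2 genes most like it were sought among 5179 genes with a symbol and at least 10 CPM, by Pearson's r of log2(CPM + 1) over the 19 sums. KMT2B had the closest neighbours, HNRNPU (r = 0.90) and BRD3 (r = 0.90). Its sums of gilt 201 at stages 2 and 3 (71.4 and 388.1 CPM) lay apart from the rest (up to 25.1 CPM), and their weight in r was not tested. SETD2 was nearest to RAB28 (0.82) and XPO5 (0.82), SETDB1 to SLC7A3 (0.86) and ISL1 (0.85), and SUZ12 to BCL9 (0.83) and SBNO1 (0.81). EZH2 was nearest to ORAI1 (0.84) and PPM1D (0.83), and EED to DSE (0.79) and AP2B1 (0.76). KDM1A was nearest to RNF31 (0.84) and LRPPRC (0.81), KDM1B to KSR2 (0.83) and TRPC4 (0.80), EHMT2 to CTNNA3 (0.75) and SMG6 (0.74), and KDM5B to CSNK1D (0.78) and GCLM (0.75). No 2 enzymes shared a nearest gene. Each r was picked as among the highest of 5179 over only 19 sums, so a high r can arise without any link. The sums also share gilts and scaling, so r describes likeness over these sums only.

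The wider set of histone lysine methylation genes was read from 9 lists with 84 other genes, of which 71 were in the table and 70 were tested. None of the 70 passed between stages 5 and 1 or for the trend by edgeR's quasi-likelihood test. In these, 7 and 6 of the 70 had an unadjusted p under 0.05, beside 840 and 900 of all 15637 genes tested. Their fitted changes from stage 1 to stage 5 had a median of 0.12, with 38 above 0 and 32 below, beside the -0.27 of all genes. Of 14 tested genes of H3K4 methylation, 8 were above 0, among them RBBP5, a core subunit of the KMT2 complexes (1.75 ± 0.72, adjusted p = 0.904), and the methyltransferase KMT2C (1.87 ± 0.82, adjusted p = 0.904). Of 11 genes of H3K9 methylation, 8 were above 0, with PRDM2 at 2.21 ± 0.88 (adjusted p = 0.904, edgeR). An unadjusted p under 0.05 by this test was found for 3 genes of H3K4 and 2 of H3K9 methylation. Of these, only RBBP5, KMT2C and PRDM2 met the rule for naming. Of 9 genes of H3K36 methylation, 2 were above 0, with a median of -0.41 beside the -0.27 of all genes. Among the 2 was NSD1, an H3K36 methyltransferase, at 2.62 ± 1.22 (adjusted p = 0.904, edgeR). The other methyltransferases named by the smallest p of their list were SUV39H2 for H3K9 (0.87 ± 0.76), NSD3 for H3K36 (1.32 ± 0.87) and DOT1L for H3K79 (1.54 ± 1.01).

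The H3K27 methylation list had 3 of 7 above 0, with the histone-binding subunit RBBP7 at -0.82 ± 0.94 and the accessory subunit PHF19 at 0.22 ± 0.79. Of 7 tested genes of H3K4 demethylation 4 were above 0, including RCOR1, the CoREST scaffold (1.68 ± 1.16), and the demethylase KDM5A (0.86 ± 0.83). The H3K9 demethylation list had 6 of 10 above 0, with RIOX1 at 1.70 ± 1.26 and KDM3A at 1.17 ± 1.17. For H3K27 demethylation 1 of 2 was above 0, the demethylase KDM6B (1.21 ± 0.91), but the median of the 2 was -1.56. The other gene, under the limit of 10 CPM for naming, was below 0 and had an unadjusted p under 0.05 (adjusted p = 0.904, edgeR's quasi-likelihood test). For H3K36 demethylation 0 of 3 were above 0, with RIOX2 at -0.80 ± 1.3. The H3K79 and H4K20 list had 6 of 7 above 0, including MLLT3, a partner of DOT1L (1.45 ± 0.99). No list therefore held a gene that passed between stages 5 and 1.

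The gene of the wider set that differed between gilts was HDAC1. HDAC1, a histone deacetylase that works beside KDM1A in the CoREST complex, had medians of 2.30 CPM in gilt 201, 8.87 in gilt 205, 22.5 in gilt 801 and 179 in gilt 803. The difference of gilt 803 from the other gilts was 3.33 ± 0.58 log2 units (adjusted p = 0.00114, edgeR's quasi-likelihood test), and it was the only one of the 70 genes to pass there, beside 4.68% of all genes. As for the enzymes, this test sets 1 animal against the others and does not measure spread between animals. The oocytes of gilt 803 ran from 0 to 1454 CPM and overlapped with those of every other gilt. HDAC1 had a median of 494 CPM in the 12 granulosa-rich oocytes of gilt 803 and of 60.7 CPM in its other 8, and without the granulosa-rich oocytes the difference was 0.83 (adjusted p = 0.879, edgeR). For KDM1A itself the difference was -1.10 ± 0.77 (adjusted p = 0.505, edgeR). The other genes named for gilt 803 did not pass by edgeR's quasi-likelihood test: among them WDR5, a core subunit of the KMT2 complexes, at -1.55 ± 0.60, PHF19 at -1.41 ± 0.60, RIOX1 at 2.25 ± 0.77, KMT5C, an H4K20 methyltransferase, at -1.85 ± 0.96 and the deacetylase HDAC2 at 1.25 ± 0.64 (log2 ± SE). The remaining ones were KMT2E (0.78 ± 0.46), JARID2 (-1.25 ± 0.62), KDM6B (-0.28 ± 0.68), TRIM28 (-0.59 ± 0.52), PRDM2 (0.53 ± 0.65), KDM3A (1.21 ± 0.86), NSD2 (-1.19 ± 0.67), MORF4L1 (0.61 ± 0.44), RIOX2 (-0.54 ± 0.89) and DOT1L (1.10 ± 0.69).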

How the data were processed

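The deposited counts are raw whole numbers per Ensembl gene for 55 oocytes, without normalization by the authors. Tools named in the submitters' processing notes are StringTie 1.2.2, featureCounts, HISAT2 2.1.0 and Trim Galore 0.4.3. The sources used here give no genome build, annotation or strand setting, so reads of overlapping antisense genes could not be told apart. A second deposited table, named for TPM, has column sums from 40073 to 2990163, so its length-scaled values were used only for order within an oocyte and as an alternative; it lists 6 of the 10 enzymes, and its incomplete last line was left out. Of 25880 genes, 14857 had a symbol.

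Counts were summed per gilt and stage (19 sums) and fitted with edgeR 4.0.16 in R 4.3.3 (TMM, filterByExpr, quasi-likelihood test, two-sided, stage and gilt as terms, Benjamini-Hochberg adjusted p under 0.05). A sum weighs deep oocytes more than shallow ones. Oocytes of a gilt come from the same animal, which gives the pairing: deviations from stage means correlated at -0.0014 (gilt 201), 0.22 (gilt 205), 0.14 (gilt 801) and 0.19 (gilt 803) within a gilt and at -0.10 between gilts. A stage mean includes the sums set against it, which by itself pushes the value between gilts below 0. DESeq2 1.42.0 and limma 3.58.1 were alternatives, and the fit was tested on simulated data. Named beyond the enzymes were listed genes called in a comparison and, for stage 5 against stage 1 and for gilt 803, the 2 genes of each list with the smallest p among those of at least 10 CPM. The enzymes, lists and tests were chosen with earlier results of these data known. Limits on counts of 0 cover counting error only, because PCR copies are not independent molecules.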

Additional observations from a re-analysis of the deposited data

Results flagged for a closer look

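Single values were set against the rest of their group by Dixon's test in 50 groups of 4 to 10 samples, and 3 stood apart; chance alone sets apart about 1 group in 20. At stage 4, the KMT2B sum of gilt 205 was 21.7 TMM-scaled CPM, against 2.03 to 2.68 in the other 3 gilts. At the same stage, the EHMT2 sum of gilt 205 was 0.131 TMM-scaled CPM, from 2 counts, against 9.68 to 11.6 in the other 3 gilts. At stage 5, oocyte 2 of gilt 803, which was granulosa-rich, held 211.7 CPM of KDM5B, against 0 to 16.2 in the other 9 oocytes.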

How the results depend on the processing

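No enzyme passed under any alternative between stages. Of 730 comparisons of an enzyme under an alternative with all oocytes fitted as above, 674 kept their side of the threshold and, where they have one, their direction. The F tests over all stages and among gilts have no direction, so they could not change sign and are all among the 674. Of the rest, 51 changed sign, all of them uncalled in both, and 5 passed where they had not, all 5 being KDM5B or SUZ12 for gilt 803. For neighbouring stages, the 730 hold only SETD2 (stage 3 against 2) and EED (stage 2 against 1). These were the changes with an unadjusted p under 0.05 by edgeR's quasi-likelihood test. Some of those left out changed sign: SUZ12 for stage 5 against 4 was above 0 in 9 of 15 alternatives. Others did not: EHMT2 for stage 4 against 3 was above 0 in 14 of 14. SETD2 stayed positive for stage 5 against stage 1 in 15 of 15 alternatives (0.89 to 3.15, adjusted p from 0.539 to 1). KDM1B did so in 14 of 14 (0.13 to 1.90), so a constant sign was not particular to SETD2. The wide spread between oocytes and sums, with 19 sums in all, limits every comparison, as does depth in the 3 shallow oocytes. The cause of the changes below was not tested.

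With the DESeq2 test, the genes called were 368 for stage 5 against stage 1, 161 for the trend, 47 over all stages, 415, 311, 266 and 216 for the 4 neighbouring pairs in order, 1006 among gilts and 2492 for gilt 803. Without the filter on low counts they were 23 for stage 5 against stage 1, 216 over all stages, 111, 29, 14 and 4 for the neighbouring pairs, 935 among gilts and 1156 for gilt 803. Total counts gave 1 over all stages, 1327 among gilts and 2138 for gilt 803. Fitting each oocyte as a library gave 34 over all stages, 3 between stages 3 and 2, 873 among gilts and 1399 for gilt 803. Without the granulosa-rich oocytes 14 were called among gilts and 5 for gilt 803, and limma on the length-scaled table gave 291 for gilt 803. The 2 genes called for the trend fell to 0 with limma voom, without mitochondrially encoded genes, without granulosa-rich or shallow oocytes, with each oocyte as a library and in the length-scaled table. With no replicate block, that is without the pairing by gilt, the trend also called 0, the trend of EHMT2 turned to -0.0048, still uncalled, and no enzyme changed its call. With 1 gilt left out the calls ran from 0 to 1 for stage 5 against stage 1, 0 to 2 for the trend, 0 to 45 over all stages, 0 to 50, 0 to 7, 0 to 0 and 0 to 1 for the neighbouring pairs, 27 to 549 among gilts and 120 to 799 for gilt 803.

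Leaving the neighbouring stages aside, these log2 changes turned sign against the fit above. With DESeq2 size factors they were for stage 5 against stage 1 KDM1A -0.046 and KDM5B -0.062. With the DESeq2 test they were for stage 5 against stage 1 KDM1A -0.046 and KDM5B -0.063. With limma voom they were for stage 5 against stage 1 KDM1A -0.12, and for gilt 803 EHMT2 0.025. With each oocyte as a library they were for stage 5 against stage 1 EED 0.34, for the trend EED 0.18, and for gilt 803 EHMT2 0.31. With total counts they were for stage 5 against stage 1 KDM1A -0.87, EZH2 -0.46, SUZ12 -0.23, SETDB1 -0.043, KDM5B -0.64, KDM5A -0.34 and PHF19 -0.31, for the trend KDM1A -0.058 and KDM5B -0.085, and for gilt 803 KMT2B 1.21, KDM1B 0.13, EHMT2 0.81, SETDB1 0.61, JARID2 0.085, KDM6B 0.72, TRIM28 0.43 and RIOX2 0.85. Without granulosa-rich oocytes they were for stage 5 against stage 1 EED 0.53, KDM5B -0.70 and DOT1L -0.31, for the trend EED 0.066 and KDM5B -0.20, and for gilt 803 SETD2 -0.65, KMT2B 0.95, KDM1B 0.93, EHMT2 0.38, SETDB1 0.73, KDM5B -0.41, HDAC2 -0.18, KDM6B 0.33, RIOX1 -0.45 and DOT1L -0.051. Without shallow oocytes it was for gilt 803 KMT2B 0.020. Without gilt 201 they were for stage 5 against stage 1 KDM1A -0.26, EED 0.11 and EHMT2 0.039, for the trend EED 0.086, and for gilt 803 KMT2B 0.60. Without gilt 205 they were for stage 5 against stage 1 KMT2B -0.0081, KDM5B -0.34 and PHF19 -0.17, for the trend KMT2B -0.029 and KDM5B -0.064, and for gilt 803 KMT2B 0.17 and EHMT2 0.65. Without gilt 801 they were for stage 5 against stage 1 KDM1A -0.052, and for the trend EED 0.028. Without gilt 803 they were for stage 5 against stage 1 SUZ12 -0.10, SETDB1 -0.10, KDM5B -0.54, RCOR1 -0.32, KDM5A -0.51, NSD3 -0.23 and MLLT3 -0.30, and for the trend KDM1B -0.040, EHMT2 -0.087 and KDM5B -0.11. At the other end of the range with 1 gilt left out, named in brackets, stood for stage 5 against stage 1 KMT2B 1.17 (gilt 201), EED -0.92 (gilt 205), SUZ12 1.46 (gilt 201), EHMT2 -2.32 (gilt 803), SETDB1 1.16 (gilt 201), KDM5B 1.25 (gilt 201), RCOR1 2.37 (gilt 201), KDM5A 1.59 (gilt 201), PHF19 0.83 (gilt 803), NSD3 2.24 (gilt 201) and MLLT3 2.105 (gilt 205), for the trend KMT2B 0.46 (gilt 803), KDM1B 0.37 (gilt 205), EED -0.24 (gilt 803) and KDM5B 0.42 (gilt 201), and for gilt 803 KMT2B -0.47 (gilt 801) and EHMT2 -0.63 (gilt 201).

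With each oocyte as a library KDM5B also passed for gilt 803 (3.20, adjusted p = 0.0318, edgeR). Of the wider lists, the call of HDAC1 among gilts (adjusted p = 0.00902, edgeR) was lost without gilt 205 (0.0635), without gilt 803 (0.965) and without the granulosa-rich oocytes (0.966). For gilt 803, WDR5, PHF19, RIOX1, KMT2E, HDAC2 and MORF4L1 each passed under at least 1 alternative.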
